A study of Homo sapiens with 16 samples.

Results

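The BCL2 family apoptosis genes are 10 genes, BCL2, BCL2L1, MCL1, BAX, BAK1, BBC3, PMAIP1, BCL2L11, BID and BAD, listed by name and found by Ensembl identifier, with symbols from GENCODE release 29, among the 58735 genes of the deposited count table. All 10 had enough reads to be tested. RNA sequencing measured them in HUH6, an established line from a human hepatoblastoma, in 16 libraries of 4 groups of 4. The groups were normoxia with DMSO, the solvent control, normoxia with 100 µM SLC-0111, hypoxia (1% oxygen) with DMSO, and hypoxia with 100 µM SLC-0111. Each exposure lasted 48 h. SLC-0111 is a sulfonamide inhibitor of carbonic anhydrases IX and XII, enzymes at the cell surface that help cells to control their pH. All groups are 1 parental line with no engineered allele, and the labels call the replicates technical, so the p-values below measure the spread between such libraries and not between independent experiments. The design asks what the inhibitor does at each oxygen level and what hypoxia does with and without the inhibitor.

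BCL2 family proteins decide whether the outer mitochondrial membrane is opened during the intrinsic pathway of apoptosis. BCL2, BCL-XL (from BCL2L1) and MCL1 are guardians that hold the pathway shut, and BAX and BAK (from BAK1) are effectors that form the pores through which cytochrome c leaves. The BH3-only proteins PUMA (from BBC3), NOXA (from PMAIP1), BIM (from BCL2L11), BID and BAD carry stress signals by binding guardians or by activating effectors. Much of this control acts on protein binding, cleavage, phosphorylation and stability, which transcript counts do not measure.

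The libraries held 3.298 to 49.25 M counts (M is 1e+06 counts). The hypoxia DMSO replicate 3 was the shallowest and stood apart on the second principal component (96.3, against -19.2 to 9.3 in the other libraries). The hypoxia DMSO replicate 1 lay apart from its group on the first principal component (27.3, against 48.2 to 49.6 in the other libraries of its group). By a chi-square of counts per degree of freedom, replicate 3 of this group was nearer to replicate 1 (2.27) than to replicate 2 (7.07) or the unnumbered library (6.85). Replicate 1 was at 32.9 from replicate 2 and 21.3 from the unnumbered library. In the normoxia SLC-0111 replicate 4, 80.6% of counts fell in protein-coding genes, against 86.8 to 92.4% in the other libraries. Within its group, this library held the lowest level of 6 of the 10 genes, and the hypoxia SLC-0111 replicate 4, with 88.4% coding counts, the lowest of 7. The normoxia DMSO replicate 4, with 89.1%, also held the lowest of 7. In 2 libraries, of which 1 belongs to normoxia SLC-0111 and the other to hypoxia DMSO, the label gave the group but no clear replicate number, and they are called unnumbered. The cells carried the liver tumour markers AFP (708 ± 2.32 CPM, counts per 1e+06 counts, SD, n = 4, in normoxia DMSO) and GPC3 (1772 ± 39), while DLK1, another hepatoblastoma marker, had 0.00802 ± 0.016 CPM. The leukocyte gene PTPRC had 5 counts in normoxia and 0 in hypoxia, over 8 libraries each, whereas PECAM1, an endothelial gene, was at 53.6 ± 2.75 CPM in normoxia DMSO and close to that in the other groups. Of 12 liver tumour markers, 11 could be tested. With SLC-0111, 4 were higher and 2 lower in normoxia, or 54.5%, against 23.6% of all genes. In hypoxia, 5 were higher and 2 lower with SLC-0111, or 63.6%, against 16.3% of all genes. On the log2 scale, KRT8 was at -0.52 in normoxia and -0.34 in hypoxia. Hypoxia raised 2 and lowered 4 with DMSO, ALB (-1.58) most, or 54.5%, against 49.8% of all genes. With SLC-0111 hypoxia raised 5 and lowered 4, or 81.8%, against 48.2% of all genes. The summed level of these markers was 11070 to 11890 CPM in normoxia DMSO, 9814 to 11190 in normoxia SLC-0111, 10200 to 12230 in hypoxia DMSO and 10760 to 11650 in hypoxia SLC-0111. Of 9 markers of other cell types, 6 could be tested, and PTPRC, CD3E and VWF had too few reads. SLC-0111 raised 2 and lowered 1 at each oxygen level, among them COL1A1 (log2 0.92 in normoxia and 0.79 in hypoxia) and PDGFRB (-0.76 and -0.50). This was 50% of those tested, against 23.6% of all genes in normoxia and 16.3% in hypoxia. Hypoxia raised CD14 (log2 1.07 with DMSO and 1.26 with SLC-0111) and PDGFRB (0.92 and 1.18), and lowered COL1A1 with DMSO and COL1A1 and ACTA2 with SLC-0111. Of those tested, 50% changed with DMSO and 66.7% with SLC-0111, against 49.8% and 48.2% of all genes. The summed level of the markers of other cell types was 105.4 to 109.7 CPM in normoxia DMSO and 107.7 to 118.5 in normoxia SLC-0111. In hypoxia it was 123.1 to 140.7 CPM with DMSO and 119.8 to 130.2 with SLC-0111. The part of these shifts in the changes described below was not tested.

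Levels of different genes were compared as CPM per kilobase of exon. In normoxia with DMSO, the guardian BCL2L1 had the highest per-length level, 75.7 ± 2.32 CPM per kilobase (SD, n = 4), followed by BAX at 54.7 ± 2.0, MCL1 at 34.6 ± 0.128 and BAK1 at 21.2 ± 0.557. The BH3-only genes lay lower, with BBC3 at 8.14 ± 0.225, BCL2L11 at 8.14 ± 0.415, BID at 5.17 ± 0.37 and BAD at 2.35 ± 0.254 CPM per kilobase. BCL2 itself, at 1.36 ± 0.0961, came next to last, and PMAIP1, at 0.355 ± 0.0433, was the lowest. The order was the same in the 4 groups except that BBC3 and BCL2L11 changed places, and these neighbours did not differ beyond their spread in normoxia DMSO. In hypoxia DMSO, BAD (1.8 ± 0.342) and BCL2 (1.74 ± 0.362) also lay within each other's spread. The guardians together made up 52.7 ± 0.652% of the summed per-length level of the 10 genes in normoxia DMSO and 51.3 ± 0.969% with SLC-0111. In hypoxia DMSO their share was 55.0 ± 0.45%, and in hypoxia SLC-0111 it was 55.1 ± 0.914%. The effectors' share in these groups was 34.3 ± 0.956% and 33.6 ± 0.775%, against 35.8 ± 0.538% in normoxia DMSO. These shares are given as descriptions without a test.

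**Figure D1:**
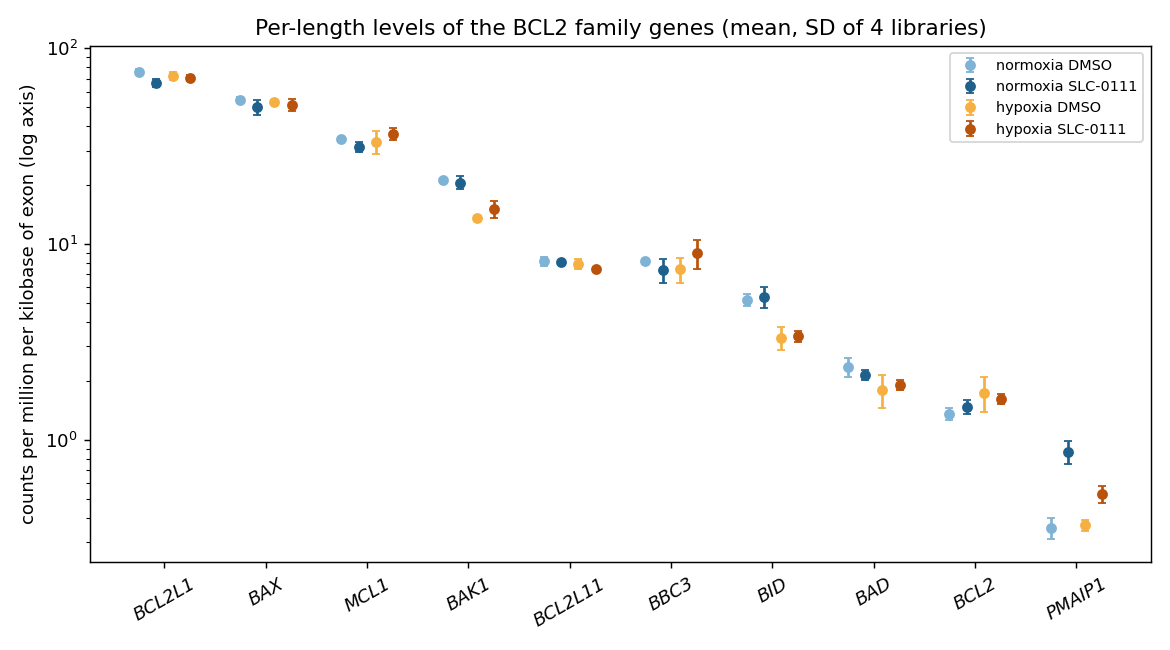
Per-length levels of the 10 genes, in CPM per kilobase of exon on a log axis, as the mean and SD of the 4 libraries of each group. BCL2L1 leads in every group (66.3 to 75.7), PMAIP1 is lowest in every group (0.355 to 0.869), and the hypoxia points of BAK1 and BID lie below their normoxia points.

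Bases upstream of PMAIP1, BAK1 and BID, whose levels moved, of BAX, which holds the most matches, and of the relative BNIP3 are shown here so that the values below can be read beside the DNA. RefSeq (GRCh38.p14) gave start sites for 9 of the 10 genes, 15 sites in all. MCL1 was not matched. In the 250 bases before each start, 3 short motifs were searched on both strands. ACGTG is 1 form of the core of the hypoxia response element, and other forms were not searched, so a window without ACGTG may still hold such a core. TGACGT is the core of the cAMP and ATF element, and TGATGNAA is the composite element of C/EBP and ATF proteins. The 3 motifs were found in 18.5%, 7.1% and 3.14% of 35116 such windows of all genes. Matches are in capitals, and where both strands of the palindrome CACGTG match they overlap and count as 2. PMAIP1, the gene SLC-0111 raised, holds 1 TGACGT, read here on the other strand. BAD also holds 1 TGACGT upstream of each of its 2 start sites, and its log2 difference with SLC-0111 in normoxia was -0.12 (adjusted p = 0.498, edgeR). BAK1, which fell in hypoxia, holds none of the 3 motifs, and BID, which also fell, holds 1 CACGTG upstream of 2 of its 5 start sites. BNIP3, a relative of the family with a far larger hypoxic rise than any of the 10, holds 1 CACGTG. BAX holds 4 CACGTG among 9 ACGTG matches, of which 4 lie in the stretch printed, and its counts did not pass the test in any comparison. BBC3, which was called higher in hypoxia with SLC-0111 only, also holds 1 CACGTG, and its bases are not printed. BCL2, BCL2L1 and BCL2L11 hold none of the 3 motifs. Bases in GENCODE exons of the gene are left out, so the stretches, except that of BID, are shorter than the windows. The stretches are chr18:59899746-59899947 (plus strand), chr6:33580294-33580526 (minus), chr22:17774043-17774292 (minus), chr10:131982014-131982173 (minus) and chr19:48954625-48954814 (plus). A match is a description of letters, not evidence of binding.
PMAIP1: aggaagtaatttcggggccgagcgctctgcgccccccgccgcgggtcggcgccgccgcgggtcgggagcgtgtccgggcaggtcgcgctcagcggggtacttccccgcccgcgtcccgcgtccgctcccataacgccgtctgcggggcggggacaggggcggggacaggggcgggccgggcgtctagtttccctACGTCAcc
BAK1: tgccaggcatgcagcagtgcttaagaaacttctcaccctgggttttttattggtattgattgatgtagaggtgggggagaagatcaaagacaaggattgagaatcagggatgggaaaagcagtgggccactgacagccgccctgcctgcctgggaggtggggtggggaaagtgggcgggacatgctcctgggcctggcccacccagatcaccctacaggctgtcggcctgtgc
BID: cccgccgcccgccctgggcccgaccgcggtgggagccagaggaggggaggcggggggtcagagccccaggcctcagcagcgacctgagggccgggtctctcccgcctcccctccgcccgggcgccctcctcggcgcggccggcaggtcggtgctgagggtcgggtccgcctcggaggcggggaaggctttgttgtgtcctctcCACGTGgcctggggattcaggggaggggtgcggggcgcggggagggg
BNIP3: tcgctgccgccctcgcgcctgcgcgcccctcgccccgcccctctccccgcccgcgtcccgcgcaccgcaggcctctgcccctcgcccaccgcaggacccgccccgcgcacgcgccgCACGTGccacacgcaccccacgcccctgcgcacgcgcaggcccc
BAX: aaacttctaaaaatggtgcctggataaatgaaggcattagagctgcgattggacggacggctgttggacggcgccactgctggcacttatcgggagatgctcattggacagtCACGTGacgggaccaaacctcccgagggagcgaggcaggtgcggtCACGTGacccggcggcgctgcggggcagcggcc

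SLC-0111 in normoxia raised PMAIP1 and lowered BCL2L1. In hypoxia, no member passed the test with SLC-0111. Hypoxia lowered the effector BAK1 and the BH3-only gene BID both with DMSO and with SLC-0111, raised BCL2 with DMSO, and with SLC-0111 raised MCL1 and BBC3 and lowered PMAIP1. In bulk RNA, a change in transcripts per cell and a change in the share of cells that carry them cannot be told apart. The test was edgeR's quasi-likelihood test over 18385 genes with Benjamini-Hochberg adjusted p under 0.05, which is what passing the test means throughout.

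In normoxia, SLC-0111 changed 2 of the 10 genes, or 20%, against 23.6% of all genes tested (1 of 10 higher against 12.4%, 1 of 10 lower against 11.2%). The median log2 fold change of the 10 was -0.08, against 0.02 over all genes. In hypoxia, edgeR called 0 of 10, against 16.3% of all genes (9.14% higher and 7.11% lower), with 1 of 10 at an unadjusted p under 0.05 and 0 by DESeq2 and by limma-voom. Hypoxia against normoxia changed 3 of 10 with DMSO, 1 higher against 25% of all genes and 2 lower against 24.8%, or 49.8% in either direction. With SLC-0111 it changed 5 of 10, 2 higher against 23.9% and 3 lower against 24.3%, or 48.2% in either direction. The medians of the 10 were -0.06 and -0.04, against -0.00221 and -0.03 over all genes. For the difference between the SLC-0111 effects at the 2 oxygen levels, edgeR called 0 of 10, against 5.99% of all genes (2.87% higher and 3.13% lower). DESeq2 and limma-voom also called 0. At an unadjusted p under 0.05 (edgeR) there were 4 of 10. The share of all genes at that unadjusted threshold was not worked out, so this count and the 1 of 10 above cannot be set against it. With only 10 genes, these shares were not tested against those of all genes, and no difference is read from them. Counts in all comparisons except hypoxia against normoxia with DMSO depended on single libraries. With SLC-0111 in normoxia, 3 were called without the normoxia SLC-0111 replicate 1, BAX being the added gene. With SLC-0111 in hypoxia, 1 was called without the hypoxia DMSO replicate 1 and 2 without the hypoxia SLC-0111 replicate 4. The same omissions gave 1 and 2 for the difference, and without the normoxia SLC-0111 replicate 4 hypoxia with SLC-0111 gave 3. The numbers called among all genes also moved with the library left out, and their ranges are given with the alternatives below.

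**Figure D2:**
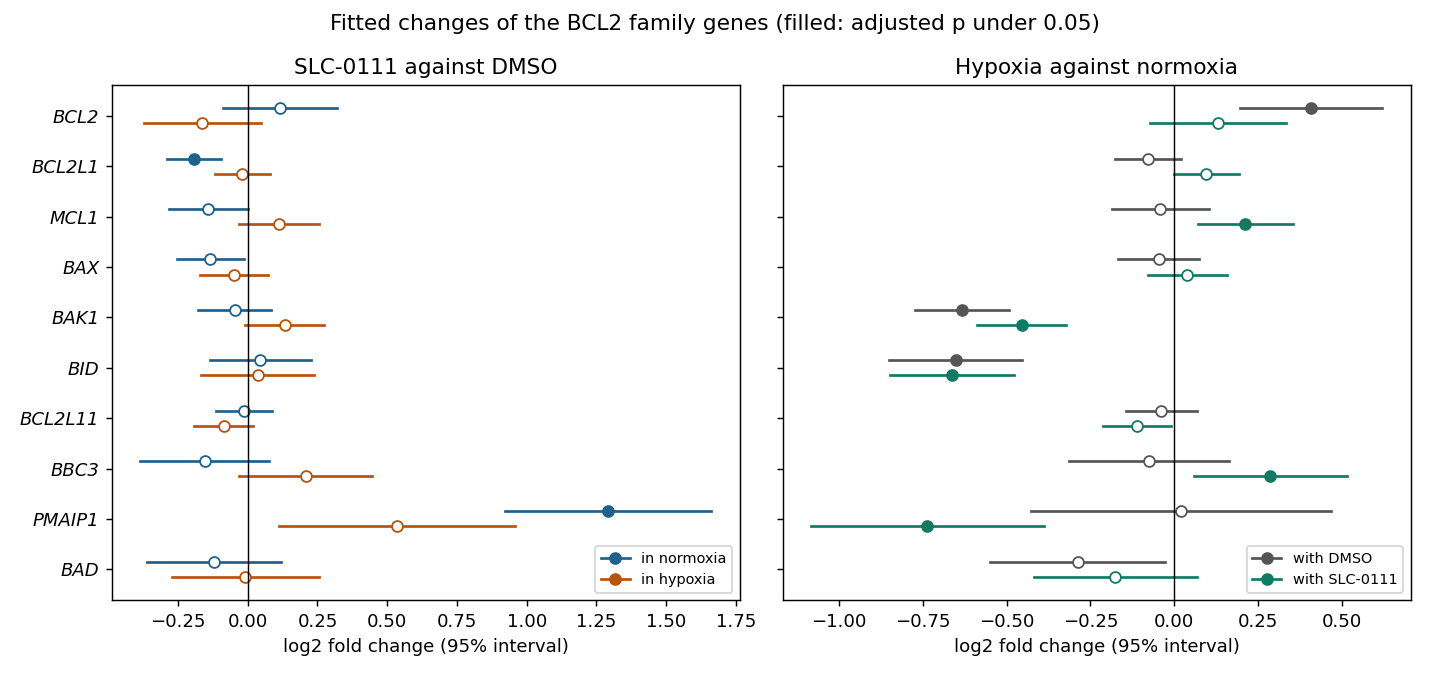
Log2 fold changes of the 10 genes with 95% intervals, for SLC-0111 against DMSO at each oxygen level and for hypoxia against normoxia with each treatment. Filled points have an adjusted p under 0.05. The largest change is PMAIP1 with SLC-0111 in normoxia (1.29), and BAK1 and BID lie left of 0 in both oxygen comparisons (-0.66 to -0.45).

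Among the guardians, BCL2L1 fell with SLC-0111 in normoxia by a small amount. BCL2L1 (ENSG00000171552, chromosome 20, 31664452 to 31723989, minus strand) encodes BCL-XL. Its levels in normoxia DMSO replicates 1 to 4 were 261.3, 250.3, 249.2 and 242.8 CPM, and with SLC-0111 they were 233.0, 219.2 and 208.3 CPM in replicates 1, 3 and 4 and 218.2 CPM in the unnumbered library. Every SLC-0111 library was below every DMSO library. The log2 fold change was -0.19 ± 0.0468 (SE), a fall of 12.5%, with an adjusted p of 0.004 in edgeR. In hypoxia the levels were 245.5, 234.4 and 248.9 CPM in DMSO replicates 1 to 3 and 224.5 CPM in the unnumbered library, and 240.2, 232.1, 243.1 and 223.8 CPM with SLC-0111. These groups overlapped, and the log2 difference was -0.02 ± 0.0473 (adjusted p = 0.85, edgeR). The difference between the effects at the 2 oxygen levels was 0.17 on the log2 scale, with a 95% interval of 0.04 to 0.31 and an adjusted p of 0.128, so it did not pass the test. ABALON, an antisense transcript, shares 43% of the BCL2L1 exon bases. It was counted at 8.56 CPM in normoxia DMSO and 5.06 with SLC-0111, against a BCL2L1 difference of mean levels from 250.9 to 219.7 CPM. The strand setting of the count is not given in the sources used here, so reads in the shared bases may have been counted for either gene or left out.

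BCL2, the founding guardian, rose in hypoxia with DMSO. BCL2 (ENSG00000171791, chromosome 18, 63123346 to 63320128, minus strand) was at 14.4, 15.9, 16.6 and 16.9 CPM in normoxia DMSO and at 17.2, 26.1 and 17.3 CPM in hypoxia DMSO replicates 1 to 3, with 21.5 CPM in the unnumbered library. The groups did not overlap, but hypoxia replicates 1 and 3 lay only just above the highest normoxia library, and replicate 3 rests on 58 reads. The log2 fold change was 0.41 ± 0.102, or 1.33-fold, with an adjusted p of 0.0019 in edgeR. It was 0.24 without the hypoxia DMSO replicate 2 (adjusted p = 0.0374) and 0.54 without the replicate 1, the lowest and highest values with 1 library left out. With SLC-0111, BCL2 was at 15.4, 17.0 and 18.7 CPM in normoxia replicates 1, 3 and 4, at 18.0 in the unnumbered library, and at 19.9, 20.1, 18.0 and 18.0 CPM in hypoxia. Those groups overlapped, and the log2 difference was 0.13 (95% interval -0.07 to 0.33, adjusted p = 0.286, edgeR). The difference between these oxygen effects was -0.28 ± 0.142, with an adjusted p of 0.259. Without the hypoxia DMSO replicate 1, it was -0.39 with an adjusted p of 0.0386 in edgeR.

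MCL1 (ENSG00000143384, chromosome 1, 150574551 to 150579738, minus strand) encodes a guardian with a short-lived protein, and NOXA is its best known BH3-only partner. In normoxia DMSO its levels were almost equal, 151.5, 151.5, 151.8 and 150.5 CPM. With SLC-0111 in normoxia they were 144.8, 141.3 and 124.8 CPM in replicates 1, 3 and 4 and 138.3 CPM in the unnumbered library, all below the DMSO libraries. The log2 difference of -0.14 ± 0.0686 did not pass the test (adjusted p = 0.148, edgeR), and it passed when only these groups were fitted (adjusted p = 0.0119) or with library size as the only scaling (adjusted p = 0.0318). In hypoxia DMSO, replicates 1 and 3 were low (133.5 and 125.4 CPM) and replicate 2 and the unnumbered library high (161.2 and 162.7). In hypoxia SLC-0111, replicates 1 to 3 lay close together (165.5, 163.5 and 165.3 CPM) and replicate 4 lower, at 142.3 CPM. With SLC-0111, MCL1 rose in hypoxia by 0.21 ± 0.0686 on the log2 scale, or 1.16-fold (adjusted p = 0.0133, edgeR), although the normoxia and hypoxia ranges overlapped. Without the normoxia SLC-0111 replicate 4, the library with the fewest coding counts, the adjusted p was 0.0532, and with the coding share of each library as a covariate, added after the data were seen, it was 0.13.

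Of the effectors, BAK1 fell in hypoxia and BAX did not pass the test in any comparison. BAK1 (ENSG00000030110, chromosome 6, 33572547 to 33580293, minus strand) was at 46.9, 48.1, 47.6 and 45.3 CPM in normoxia DMSO and at 30.7, 29.5 and 29.5 CPM in hypoxia DMSO replicates 1 to 3, with 30.9 CPM in the unnumbered library. The 4 hypoxia libraries, the shallow one included, lay close together and far below every normoxia library. The log2 fold change was -0.63 ± 0.0681, a fall of 35.5% (adjusted p = 4.18e-08, edgeR). With SLC-0111, BAK1 went from 50.2, 44.6 and 41.8 CPM in normoxia replicates 1, 3 and 4 and 45.7 CPM in the unnumbered library to 37.0, 32.3, 35.1 and 29.1 CPM in hypoxia. These groups did not overlap either, and the log2 fold change was -0.45 ± 0.0644, a fall of 27.0% (adjusted p = 3.31e-06, edgeR). The difference between the oxygen effects, 0.18 on the log2 scale with a 95% interval of -0.01 to 0.37, was not past the threshold (adjusted p = 0.272). The pseudogene BAK1P1 had 2 to 23 counts a library, against 99 to 1583 for BAK1.

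BAX (ENSG00000087088, chromosome 19, 48954815 to 48961798, plus strand) was at 133.8 to 145.0 CPM in normoxia DMSO and at 140.7, 124.0 and 116.2 CPM in normoxia SLC-0111 replicates 1, 3 and 4, with 135.5 CPM in the unnumbered library. The groups overlapped, and the log2 difference was -0.13 ± 0.0577 (adjusted p = 0.0997, edgeR), with an adjusted p of 0.0337 without the normoxia SLC-0111 replicate 1. Hypoxia DMSO, at 133.7 to 142.3 CPM, covered nearly the same range as normoxia DMSO. The 95% interval of that log2 difference was -0.17 to 0.08, which does not reach a fall of the size seen in BAK1. BAX and BAK1 are often treated as interchangeable effectors, and their log2 differences in hypoxia DMSO, -0.05 ± 0.0587 and -0.63 ± 0.0681, are given side by side here without a test between genes.

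Among the BH3-only genes, PMAIP1 had the largest change of the family, from the lowest level. PMAIP1 (ENSG00000141682, chromosome 18, 59899948 to 59904306, plus strand) encodes NOXA. In normoxia DMSO it had 22, 20, 23 and 24 reads, or 0.938, 0.768, 0.738 and 0.734 CPM. With SLC-0111 in normoxia it had 47, 61 and 65 reads in replicates 1, 3 and 4 and 37 in the unnumbered library, or 2.16, 2.19, 1.72 and 1.70 CPM. All SLC-0111 libraries were above all DMSO libraries, with replicates 1 and 3 highest. The log2 fold change was 1.29 ± 0.179, or 2.45-fold (adjusted p = 1.09e-05, edgeR). In hypoxia DMSO it was at 0.767, 0.813 and 0.893 CPM in replicates 1 to 3, the last from 3 reads, and at 0.797 CPM in the unnumbered library. With SLC-0111 in hypoxia it was at 1.34, 1.09, 1.19 and 1.08 CPM. These groups also did not overlap, but the log2 difference of 0.54 ± 0.204, or 1.45-fold, did not pass the test (adjusted p = 0.0782, edgeR), and its 95% interval was 0.11 to 0.96. Hypoxia with SLC-0111 lay below normoxia with SLC-0111 in every library, by a log2 fold change of -0.74 ± 0.168 (adjusted p = 0.000853, edgeR). Between the DMSO groups the difference was 0.02 ± 0.216 (adjusted p = 0.953). The SLC-0111 effect in hypoxia minus that in normoxia was -0.76 (95% interval -1.32 to -0.19), with an adjusted p of 0.107, so a smaller effect in hypoxia was not shown.

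BID fell in hypoxia by about the same factor with either treatment. BID (ENSG00000015475, chromosome 22, 17734138 to 17774770, minus strand) encodes the protein that caspase 8 cleaves to link death receptors to mitochondria. Its levels were 21.7, 25.4, 22.2 and 22.8 CPM in normoxia DMSO and 16.9, 14.4 and 15.5 CPM in hypoxia DMSO replicates 1 to 3, with 12.1 CPM in the unnumbered library. With SLC-0111 they were 26.4, 21.8 and 20.9 CPM in normoxia replicates 1, 3 and 4 and 26.3 CPM in the unnumbered library, and 14.8, 15.3, 16.1 and 13.9 CPM in hypoxia. No hypoxia library reached the lowest normoxia library in either treatment. The log2 fold changes were -0.65 ± 0.0961 with DMSO (adjusted p = 4.55e-06) and -0.66 ± 0.0897 with SLC-0111 (adjusted p = 1.82e-06), falls of 36.4% and 36.8% in edgeR. Their difference was -0.01, with a 95% interval of -0.28 to 0.26.

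BBC3 (ENSG00000105327, chromosome 19, 47220822 to 47232766, minus strand) encodes PUMA, a target of p53. It was at 25.0 to 26.7 CPM in normoxia DMSO and at 24.5, 23.6 and 19.0 CPM in normoxia SLC-0111 replicates 1, 3 and 4, with 26.6 CPM in the unnumbered library. Hypoxia SLC-0111 libraries were at 34.0, 28.8, 29.5 and 22.3 CPM, overlapping with normoxia SLC-0111. The rise in hypoxia with SLC-0111 was 0.29 ± 0.109 on the log2 scale, or 1.22-fold (adjusted p = 0.0364, edgeR). It passed the test in 16 of 25 alternative analyses. The adjusted p was 0.133 without the hypoxia SLC-0111 replicate 1, 0.144 without the normoxia SLC-0111 replicate 4, and 0.0513 to 0.0826 without each of 4 other libraries of these groups. With the coding share as a covariate it was 0.488. With DMSO the hypoxia levels were 18.8 to 26.5 CPM and the log2 difference was -0.08 ± 0.115 (adjusted p = 0.619).

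BCL2L11 (ENSG00000153094, chromosome 2, 111119378 to 111168447, plus strand), which encodes BIM, and BAD (ENSG00000002330, chromosome 11, 64269830 to 64284704, minus strand), whose protein is held inactive by phosphorylation, did not pass the test in any comparison. BCL2L11 was at 51.8 to 57.5 CPM in normoxia DMSO and 52.98 to 53.9 CPM with SLC-0111. In hypoxia it was at 48.7 to 55.1 CPM with DMSO and 48.7 to 50.4 CPM with SLC-0111. The hypoxia SLC-0111 libraries lay below all normoxia SLC-0111 libraries, by -0.11 ± 0.0491 on the log2 scale (adjusted p = 0.0685, edgeR). BAD was at 3.70 to 4.64 CPM in normoxia DMSO and 2.38 to 3.59 CPM in hypoxia DMSO, groups that did not overlap, with a log2 difference of -0.29 ± 0.126 (adjusted p = 0.0611, edgeR). Opposite-strand neighbours share 10.9% of BCL2L11 exon bases (MIR4435-2HG) and 23.7% of BAD exon bases (GPR137). GPR137 was at 40.6 CPM in normoxia DMSO and 34.0 in hypoxia DMSO, well above BAD. Reads in the shared bases may have been counted for either gene or left out, which bears on the BAD values in particular. Counts per gene do not separate the isoforms of BCL2L11, BCL2L1, MCL1 or BAX, which differ in activity.

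**Figure D3:**
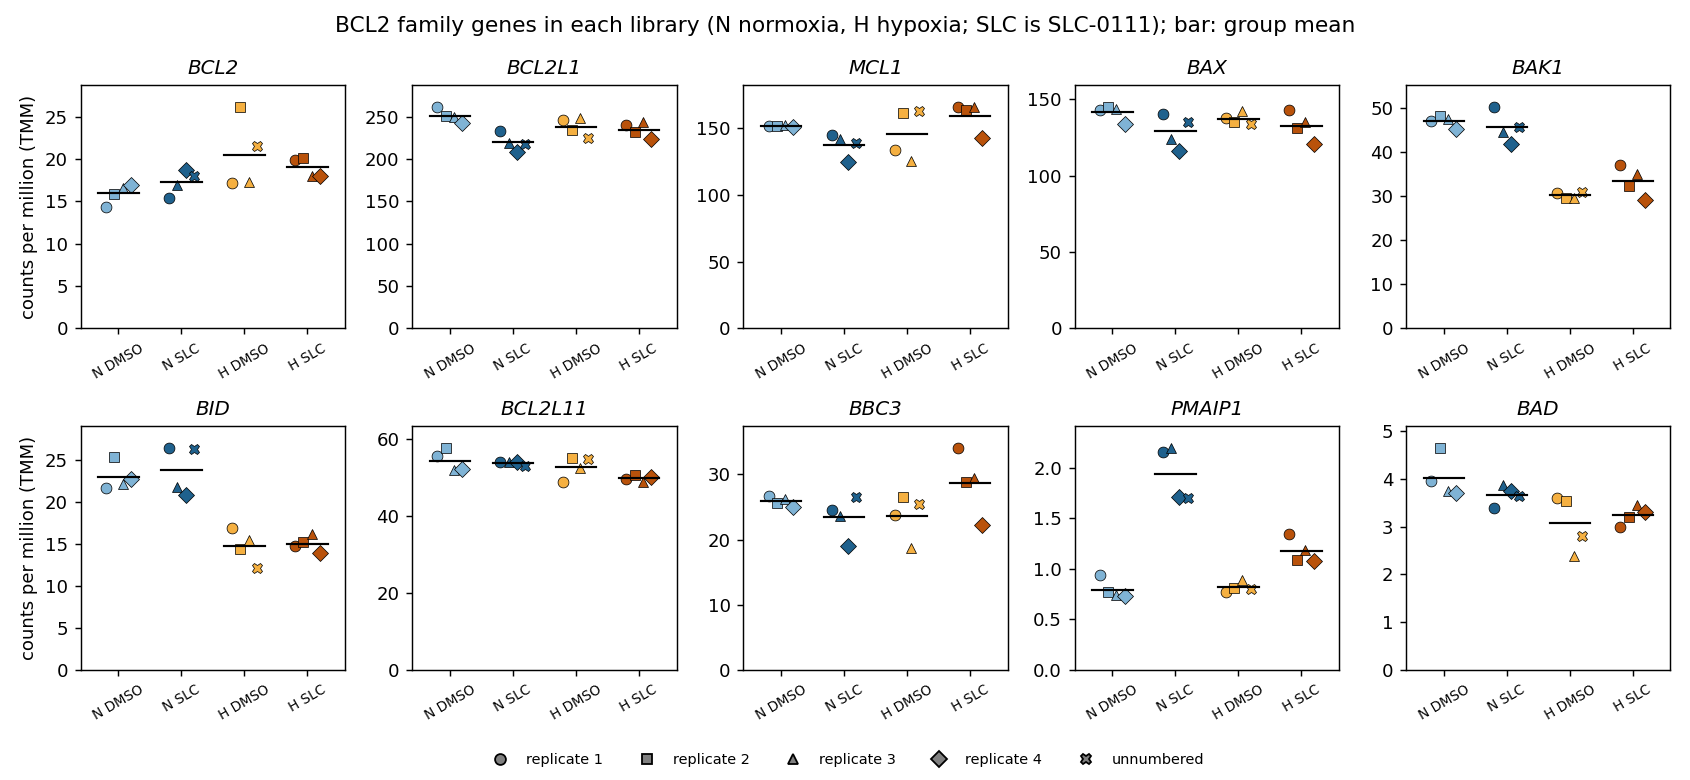
TMM-scaled CPM of the 10 genes in each library, by group, with a bar at the group mean of 4 libraries and a symbol for each replicate number. All hypoxia libraries of BAK1 and BID lie below all normoxia libraries, and all SLC-0111 libraries of PMAIP1 lie above the DMSO libraries at the same oxygen level.

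Other genes of the family and pathway were taken from lists chosen with earlier results of these data known. Of 13 other BCL2 family genes, 10 could be tested, and hypoxia with DMSO raised 7 and lowered 1, or 80%, against 49.8% of all genes, with a median log2 fold change of 0.33 against -0.00221 over all genes. BNIP3, whose product acts in mitophagy as well as in cell death, rose from 72.8 ± 2.21 CPM in normoxia DMSO to 821.2 ± 118 CPM in hypoxia DMSO (SD, n = 4), 11.3-fold (adjusted p = 3.49e-19, edgeR). Its relative BNIP3L rose from 21.1 ± 0.886 to 115.5 ± 16.6 CPM. BOK, an effector relative, rose from 27.9 ± 1.6 to 41.4 ± 3.49 CPM, and BIK, a BH3-only gene, from 1.06 ± 0.178 to 1.67 ± 0.312 CPM, a call that was lost without the hypoxia DMSO replicate 2 (adjusted p = 0.0904). BCL2L12 fell by 0.38 on the log2 scale. With SLC-0111, hypoxia raised 6 and lowered 1, against 48.2% of all genes in either direction, with BNIP3 at 84.5 ± 5.42 CPM in normoxia and 655.6 ± 48.7 CPM in hypoxia.

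SLC-0111 changed 4 of the 10 tested relatives at each oxygen level, 3 higher and 1 lower in normoxia and 2 higher and 2 lower in hypoxia, against 23.6% and 16.3% of all genes. BCL2L13, a mitochondrial relative, rose in both, by 0.32 ± 0.0543 and 0.29 ± 0.0552 on the log2 scale. The BH3-only gene BMF rose by 0.24 ± 0.0526 and 0.21 ± 0.0537, calls that were lost when library size was the only scaling (adjusted p = 0.0577 and 0.143). BOK rose in normoxia by 0.41 ± 0.0729. BNIP3 and BNIP3L fell in hypoxia, by 0.33 and 0.39 on the log2 scale. For BNIP3 the SLC-0111 effect differed between hypoxia and normoxia by -0.54 ± 0.11 (adjusted p = 0.0049, edgeR). BCL2A1 and BCL2L10, guardians of blood cells and germ cells, had 1 and 0 counts over all 16 libraries.

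Downstream of the pore, hypoxia with DMSO raised 5 and lowered 9 of 18 genes of the apoptosome, the caspases and their inhibitors, against 25% and 24.8% of all genes, with a median log2 fold change of -0.16. APAF1, the scaffold of the apoptosome, rose from 30.5 ± 2.14 to 57.8 ± 6.24 CPM, 1.93-fold (adjusted p = 1.01e-11, edgeR). CYCS, cytochrome c, fell from 98.1 ± 4.99 to 63.5 ± 8.9 CPM. CASP8, the gene of the caspase that cleaves BID, fell by 0.50 ± 0.0902 on the log2 scale. Without the unnumbered hypoxia DMSO library, 5 genes rose and 5 fell. With SLC-0111, hypoxia raised 4 and lowered 7, against 23.9% and 24.3% of all genes, and APAF1 rose less, with a difference in effect of -0.40 ± 0.0874 (adjusted p = 0.00704). SLC-0111 raised XIAP, an inhibitor of caspases, by 0.33 ± 0.0578 in normoxia and 0.33 ± 0.0602 in hypoxia (adjusted p = 0.000184 and 0.000357, edgeR). It changed 8 of the 18 in normoxia, 3 higher and 5 lower, against 23.6% of all genes. Among the lower were ENDOG (-0.38 ± 0.137), VDAC3 (-0.32 ± 0.0635), CASP9 (-0.29 ± 0.0867) and CYCS (-0.26 ± 0.0679). The ENDOG fall passed the test in 13 of 25 alternative analyses. Without the normoxia DMSO replicate 2, SLC-0111 changed 5, and the call of CASP9 was lost (adjusted p = 0.0709, edgeR). In hypoxia it changed 3, 1 higher and 2 lower, against 16.3% of all genes, and without the hypoxia SLC-0111 replicate 4 it changed 5.

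**Figure D4:**
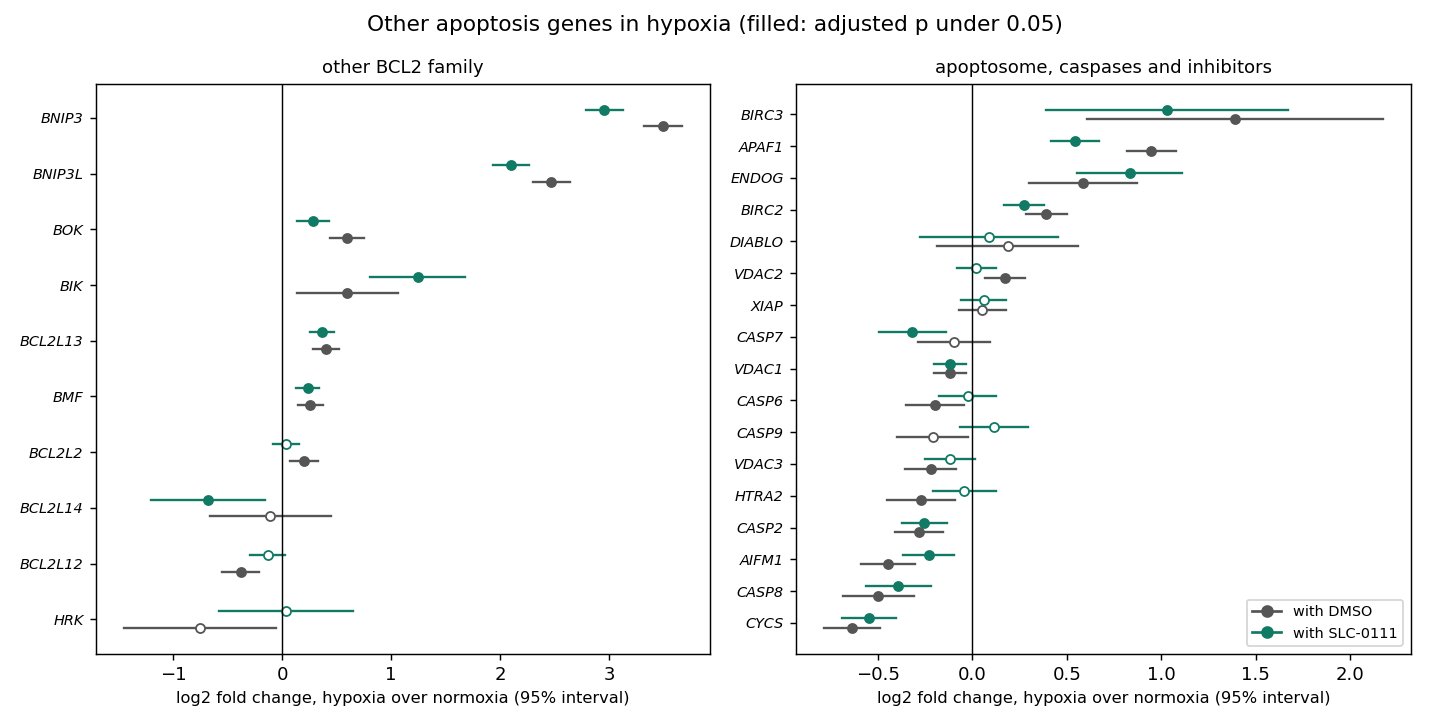
Log2 fold changes, hypoxia over normoxia, with 95% intervals for the 10 tested other BCL2 family genes and for genes of the apoptosome, caspases and inhibitors, not all of them shown, with DMSO and with SLC-0111. Filled points have an adjusted p under 0.05, and BNIP3 (3.50 and 2.96) and BNIP3L (2.47 and 2.10) stand far right of 0.

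Of 12 stress transcription factors known to act on BH3-only genes, hypoxia raised 5 and lowered 3 with DMSO and raised 8 and lowered 2 with SLC-0111, against 49.8% and 48.2% of all genes in either direction. JUN rose from 38.8 ± 1.99 to 442.6 ± 224 CPM with DMSO and from 53.4 ± 2.48 to 671.8 ± 106 CPM with SLC-0111. ATF3 rose by 2.34 ± 0.293 and 2.15 ± 0.28 on the log2 scale, and FOXO3, known as an activator of BCL2L11, by 1.25 ± 0.105 and 1.31 ± 0.104, while BCL2L11 itself did not pass the test. ATF4, known as an activator of PMAIP1 under stress, fell in hypoxia by 0.27 with DMSO and 0.34 with SLC-0111 on the log2 scale. SLC-0111 raised ATF4 from 425.0 ± 18.8 to 528.9 ± 42.5 CPM in normoxia (log2 0.32 ± 0.0588, adjusted p = 0.000337) and from 352.2 ± 14.6 to 417.7 ± 30.7 CPM in hypoxia (log2 0.24 ± 0.0593, adjusted p = 0.00563). The hypoxia call was lost when library size was the only scaling (adjusted p = 0.0765). FOXO1 rose with SLC-0111 by 0.42 ± 0.0829 and 0.41 ± 0.083 at the 2 oxygen levels. CEBPB had the largest called change with SLC-0111 in hypoxia, 0.50 ± 0.107 on the log2 scale. In all, SLC-0111 raised 2 and lowered 2 of the 12 in normoxia and raised 4 and lowered 1 in hypoxia, against 23.6% and 16.3% of all genes. In hypoxia, 7 rose and 1 fell without the hypoxia DMSO replicate 2.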

How the data were processed

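Total RNA of HUH6 cells was sequenced, and the authors deposited whole-number read counts for each gene. The submitters' processing notes name GRCh38 as the build and HISAT2 (HISAT in places), HTSeq, MultiQC 1.10.1 and edgeR 3.4.0 as tools. Strand use is not given in the sources used here. Identifiers, spans and strands of all 58735 genes matched GENCODE release 29, after adding 1 to the table's starts, and gave symbols and union exon lengths. Of 16 columns, 2 name the group but no clear replicate, and they entered as unnumbered libraries of that group.

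After filterByExpr, 18385 genes remained. TMM scaling and a model over all 4 groups were run in edgeR 4.0.16 (R 4.3.3) with robust quasi-likelihood dispersion, 12 residual degrees of freedom and a common biological coefficient of variation of 0.0741. An SE is the log2 fold change over the square root of the F statistic, and intervals are at the 95% level. Printed CPM values are TMM-scaled. No library was a copy of another. Alternatives used DESeq2 1.42.0, limma 3.58.1, other scalings and filters, each library left out, the replicate number as a block, and, added after the data were seen, the protein-coding share as a covariate. The fit was also run on simulated counts with known changes, and the outcome is not given here. Those changes were larger than the ones called for BCL2L1, MCL1 and BBC3, and no simulated library was made to deviate. All 10 members are named, though not with values in every comparison. From each other list, genes were named out of up to 4 called ones with the largest absolute log2 fold change, at 1 CPM or more in the higher group. Not all of these are printed, so the named genes are not always the largest changes. CASP8 and, in some comparisons, BCL2L12, CYCS, ATF4 and CDKN1A were added after their values were seen, as were markers, overlapping genes and genes under the filter. The members and lists were chosen with earlier results of these data known. DIABLO and IGF2 each have 2 identifiers, of which the one with more counts was used. Totals of 3.298 to 49.25 M counts a library limit precision most for PMAIP1 and BAD. A result for 1 listed gene is not reported here.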

Additional observations from a re-analysis of the deposited data

Results flagged for a closer look

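In 40 sets of 4 libraries (10 genes in 4 groups), the library farthest from the others was checked against Dixon's 95% critical value, which chance passes in about 1 of 20 sets, and 4 passed. MCL1 was low in the hypoxia SLC-0111 replicate 4, at 142.3 CPM. BAX was low in the normoxia DMSO replicate 4, at 133.8 CPM. PMAIP1 was high in the normoxia DMSO replicate 1, at 0.938 CPM from 22 reads. BCL2L11 was low in the unnumbered normoxia SLC-0111 library, at 52.98 CPM, in a group that spanned only 52.98 to 53.9 CPM.

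For 6 listed genes outside the 10, the effect of SLC-0111 differed between hypoxia and normoxia in edgeR (adjusted p under 0.05). On the log2 scale, hypoxia minus normoxia, the difference was -0.54 for BNIP3, -0.40 for APAF1, 0.42 for CDKN1A, 0.27 for BTG2, 0.62 for ALB and -0.30 for HNF4A. SLC-0111 raised ALB, the hepatocyte gene for albumin, in hypoxia by 0.57 ± 0.0907 (adjusted p = 0.000125), and in normoxia its log2 difference was -0.05 ± 0.0807 (adjusted p = 0.716). It raised HNF4A, a hepatocyte transcription factor, in normoxia by 0.28 ± 0.0503 (adjusted p = 0.000235), and in hypoxia the difference was -0.02 ± 0.0504 (adjusted p = 0.884). The BTG2 difference passed the test in 10 of 24 alternatives, with an adjusted p of up to 0.104. The other 5 passed in all 24.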

How the results depend on the processing

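Over 25 alternatives (24 for the difference of effects), 1153 of 1239 values of the 10 genes kept their sign and their side of the threshold, 44 that were not past it either way had another sign, 11 lost a call, 31 gained one, and 0 called values changed sign. The calls of BAK1, BID, BCL2, BCL2L1 and PMAIP1 held in all 25. No alternative fitted hypoxia DMSO without both its replicates 1 and 3, which held the lower BCL2 and MCL1 levels of that group. Of the 10 genes, SLC-0111 in normoxia changed 4 with library size as the only scaling or with only the groups compared, since BAX and MCL1 were then called lower (2 to 3 with 1 library left out). In hypoxia it changed 1 with no filter on low counts, 2 with the coding share as a covariate and 0 to 2 with 1 library left out. Hypoxia with SLC-0111 changed 3 with the covariate and 3 to 6 with 1 library left out. The difference of effects gave 2 with no filter and 0 to 2 with 1 library left out. Over all genes, SLC-0111 in hypoxia changed 1972 with only the groups compared, against 2988. Across the alternatives, the number called among all genes was 3365 to 5559 for SLC-0111 in normoxia and 1972 to 3754 in hypoxia. It was 7757 to 9250 for hypoxia with SLC-0111 and 691 to 2040 for the difference. The counts of the 10 genes under an alternative are therefore not to be set against the shares of the main fit. The difference called 1102 genes, 691 without the normoxia DMSO replicate 2, 708 without the hypoxia SLC-0111 replicate 3 and 2040 without the hypoxia DMSO replicate 1. With library size alone, the share of higher genes among those called fell from 52.4 to 30.8% for SLC-0111 in normoxia and from 56.3 to 33.1% in hypoxia. In the 14 numbered libraries, same-numbered libraries deviated together with r from -0.03 to 0.35, highest for replicate 4 (0.28 and 0.35). In 13 of 24 cases, each 1 library in 1 comparison, a library correlated best with its own number. The count to be met without pairing was not worked out. Not every pair was over 0.1, so the numbers were not taken as pairs. The main fit thus has no term for a deviation that same-numbered libraries share, and such a deviation stays in the spread between libraries. With the number as a block, SLC-0111 in normoxia changed 3 of the 10 (BAX also, -0.16, adjusted p = 0.0112), hypoxia with SLC-0111 changed 6 (BCL2L1 also, 0.12, adjusted p = 0.0214), the fall of BNIP3 with SLC-0111 in hypoxia was not called (adjusted p = 0.0799), SLC-0111 in hypoxia changed 3 of the 10 (MCL1, BAK1 and BBC3, higher), the difference 3 of the 10 (BCL2L1, MCL1 and BBC3) and 1881 of all genes. The causes were not tested.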

Other observations

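Of 20 p53 target genes outside the family, hypoxia raised 3 and lowered 9 with DMSO, and raised 3 and lowered 10 with SLC-0111. Of all genes, 25% were higher and 24.8% lower with DMSO, and 23.9% and 24.3% with SLC-0111. FDXR, a mitochondrial reductase gene, fell from 79.8 ± 1.05 CPM in normoxia DMSO to 40.6 ± 4.1 CPM in hypoxia DMSO (SD, n = 4). GDF15, which other stress pathways also induce, rose from 66.5 ± 4.29 to 235.4 ± 104 CPM (adjusted p = 9.29e-05, edgeR). SLC-0111 lowered 6 of the 20 and raised 0 in normoxia, against 11.2% of all genes lower and 12.4% higher, or 23.6% in either direction. At an unadjusted p under 0.05 (edgeR) there were 11 of 20, among them TP53I3 (log2 0.18) and SPATA18 (0.15), which were higher. The share of all genes at that unadjusted threshold was not worked out. PHLDA3, a target that restrains AKT, fell with SLC-0111 in normoxia from 115.2 ± 4.6 to 84.9 ± 8.58 CPM (adjusted p = 7.82e-05, edgeR). In hypoxia SLC-0111 raised 3, CDKN1A, BTG2 and SESN2, and lowered 6, against 16.3% of all genes in either direction. The rise of SESN2 (log2 0.35, adjusted p = 0.041, edgeR) passed in 10 of 25 alternatives, with an adjusted p of up to 0.177. The cell cycle inhibitor CDKN1A was at 107.4 ± 2.17 CPM in normoxia DMSO and 100.0 ± 5.47 with SLC-0111, and at 79.3 ± 3.26 CPM in hypoxia DMSO and 98.6 ± 5.31 with SLC-0111. With library size as the only scaling, SLC-0111 lowered 10 of the 20 in normoxia, but that scaling moved all genes down. Their median log2 fold change was then -0.05, against 0.02, and 30.8% of called genes were higher, against 52.4%. Without the hypoxia SLC-0111 replicate 2, SLC-0111 changed 5 of the 20 in hypoxia, 1 higher and 4 lower.

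Of 15 genes whose products act on the MCL1, BAD or BIM proteins, hypoxia raised 5 and lowered 4 with DMSO and likewise 5 and 4 with SLC-0111, against 49.8% and 48.2% of all genes in either direction. PIM1, a kinase that phosphorylates BAD, rose from 116.2 ± 3.4 to 289.4 ± 70.9 CPM with DMSO (adjusted p = 2.52e-06, edgeR) and from 137.3 ± 7.62 to 391.6 ± 48.2 CPM with SLC-0111. DYNLL1, a dynein light chain that binds BIM, fell from 187.6 ± 6.64 to 108.1 ± 20.1 CPM with DMSO and from 150.5 ± 11.6 to 96.0 ± 2.82 CPM with SLC-0111. SLC-0111 changed 3 of the 15 in normoxia and 1 in hypoxia, against 23.6% and 16.3% of all genes, and without the normoxia SLC-0111 replicate 4 it changed 1 in normoxia. Without the hypoxia DMSO replicate 2, the unnumbered hypoxia DMSO library or the hypoxia SLC-0111 replicate 4, it changed 3 in hypoxia.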
